A study of Mus musculus with 20 samples.

Results

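Liver sinusoidal endothelial markers were followed in the livers of mice given CMP013, a small molecule inhibitor of the protease BACE1, with and without the pregnane X receptor (PXR), a nuclear receptor of hepatocytes that responds to drugs and other foreign compounds. The markers are the 10 genes Stab1, Stab2, Clec4g, Lyve1, Pecam1, Kdr, Tek, Cdh5, Oit3 and Fcgr2b, of 18193 genes on the array, and every probe set annotated to exactly 1 of these symbols was taken, which gave 17 of 45037 probe sets. The animals were males aged 9 weeks at the first dose, and livers were taken at 96 h, after daily gavage with an acidified vehicle that held the compound or nothing. Of the 4 groups of 5 animals, WT vehicle and WT CMP013 mice were PXR+/+ on C57BL/6, and the PXR-/- mice, called PXR-KO, likewise received vehicle alone or CMP013. CMP013 was given at 150 mg/kg/day in both genotypes. The PXR-KO mice carry the substrain name C57BL/6NTac, so genotype and substrain cannot be told apart, and the sources used here do not say how the null allele was made or bred. Each mouse was hybridized to its own Affymetrix Mouse430_2 array, so the replicates are separate animals.

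The sinusoidal endothelium is a thin, perforated lining without a continuous basement membrane, and it clears waste proteins, hyaluronan and small immune complexes from blood through scavenger receptors, lectins and an Fc receptor. Stab1, Stab2, Clec4g, Lyve1, Oit3 and Fcgr2b stand for that clearing and lectin function, whereas Pecam1, Kdr, Tek and Cdh5 are junction proteins and growth factor receptors that most endothelial cells share. The first set is not exclusive to these cells, since Stab1 and Lyve1 are also found on some macrophages, Lyve1 on lymphatic vessels, and Fcgr2b on macrophages and B cells.

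The deposited value of an animal is a ratio whose denominator is the average of the 5 vehicle mice of that genotype, given here as log2, so that 0 is the vehicle average. Such ratios show neither how bright a probe set was nor how PXR-KO vehicle livers compare with WT vehicle livers, and the labelled tissue could not be checked by the level of its markers. The medians of the 20 arrays lay between -0.0275 and 0.0117 log2 units. An earlier account of these data found 4 vehicle animals apart from the others (WT vehicle 3 and 4, PXR-KO vehicle 2 and 4), and calls without them are given for the markers and most lists. A gene is said to rise or fall where limma's adjusted p over all 45037 probe sets was under 0.05.

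Promoter sequences for 6 of the 10 markers were held in the RefSeq table of build GRCm38.p6 (Stab1, Stab2, Clec4g, Kdr, Tek and Fcgr2b), but not for Lyve1, Pecam1, Cdh5 and Oit3. The 250 bases before the start of 3 genes are shown because all 3 fell in WT mice and Kdr, unlike the others, also passed the test in PXR-KO mice. They are Stab2 at chr10:87007943-87008192, Clec4g at chr8:3720652-3720901 and Kdr at chr5:75978456-75978705, all on the minus strand and written 5′ to 3′ along the gene. Matches to CAGGAA, a form of the ETS site, on either strand are in capitals.
Stab2: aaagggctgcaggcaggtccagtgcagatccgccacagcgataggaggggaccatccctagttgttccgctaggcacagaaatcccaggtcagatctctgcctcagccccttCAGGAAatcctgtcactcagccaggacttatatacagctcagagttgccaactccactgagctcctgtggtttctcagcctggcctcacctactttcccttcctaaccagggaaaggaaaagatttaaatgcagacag
Clec4g: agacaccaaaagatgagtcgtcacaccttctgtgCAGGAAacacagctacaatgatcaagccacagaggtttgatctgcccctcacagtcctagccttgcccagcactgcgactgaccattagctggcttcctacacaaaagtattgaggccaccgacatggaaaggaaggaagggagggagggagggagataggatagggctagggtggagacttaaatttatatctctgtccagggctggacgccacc
Kdr: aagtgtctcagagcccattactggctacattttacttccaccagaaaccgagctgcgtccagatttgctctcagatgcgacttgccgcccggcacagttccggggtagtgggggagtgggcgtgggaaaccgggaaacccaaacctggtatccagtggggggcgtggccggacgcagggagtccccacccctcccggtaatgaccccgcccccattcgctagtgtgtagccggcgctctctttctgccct
The letters CAGGAA, a form of the site for ETS factors, occurred in 25.7% of the 32851 windows of the same length. They were in Stab2 and Clec4g once each, in Stab1 and Tek at 2 places each, and in Kdr and Fcgr2b nowhere. Other or shorter forms of the ETS site were not searched. The GATA form AGATAA (9.99% of windows) and the nuclear receptor half-site AGTTCA (11.8% of windows) were in 0 of the 6 marker windows on either strand. These matches describe letters in a window and were not tied to binding.

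Most marker genes fell in WT mice. CMP013 lowered 10 of the 17 probe sets and raised none, where 6.72% of all probe sets fell, 7.67% rose and 14.4% changed in either direction. The 10 came from 7 of the 10 genes: Stab1, Stab2, Clec4g, Kdr, Tek, Oit3 and Fcgr2b. The median log2 change was -0.36 over the 17 marker probe sets and -0.01 over all probe sets. Treated and vehicle animals did not overlap in the same 10 probe sets, where 6.96% of all probe sets lay lower without overlap. In a bulk liver sample, fewer endothelial cells, less RNA per endothelial cell and a larger share of RNA from other cells cannot be told apart. The authors reported that CMP013 raised liver weight, hepatocyte size and mitotic activity in WT but not in PXR-KO mice. The part of these changes in the marker falls was not tested. Without the 4 vehicle animals, 5 marker probe sets were lower (Stab2, Clec4g 1427428_at, Oit3, Fcgr2b 1435477_s_at and 1455332_x_at) and 1 was higher (Fcgr2b 1447622_at, at 1.22 log2 units, adjusted p = 0.0468). Over all 45037 probe sets 1375 were then lower and 1933 higher, against 3027 and 3453 with all animals. After quantile normalization of the ratios 3 were called, all lower (Stab2, Clec4g 1427428_at and Fcgr2b 1455332_x_at), and 10 of the 17 had an unadjusted limma p under 0.05. Over all 45037 probe sets 762 were then lower and 1011 higher.

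**Figure D1:**
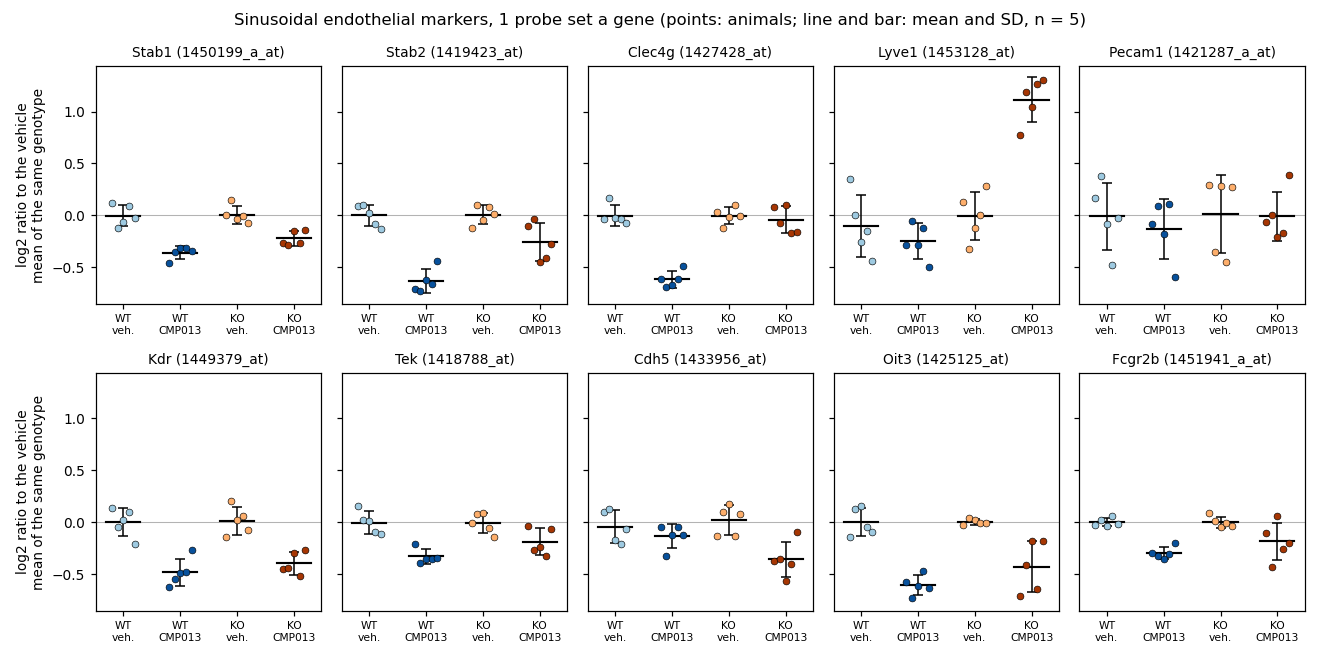
Log2 ratio of each animal to the vehicle mean of its genotype (y axis) for 1 probe set of each of the 10 genes, by genotype and treatment (x axis; KO stands for PXR-KO). Points are animals, lines and bars the mean and SD (n = 5); Stab2, Clec4g and Oit3 lie clear of vehicle in WT mice, and Lyve1 lies between 0.77 and 1.30 in the 5 treated PXR-KO mice.

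Among the scavenger receptors, Stab2, the hyaluronan receptor for endocytosis, moved most. Its log2 ratios were 0.09, 0.10, 0.02, -0.08 and -0.13 in WT vehicle animals 1 to 5 and -0.71, -0.73, -0.62, -0.66 and -0.44 in WT CMP013 animals 1 to 5. Every treated WT animal lay below every vehicle animal. The fall was -0.63 ± 0.09 (log2, SE, 5 against 5), 1.55-fold, with limma's adjusted p = 0.00154. In PXR-KO mice the vehicle animals stood at -0.12, 0.09, -0.04, 0.08 and 0.01 and the treated animals at -0.10, -0.04, -0.45, -0.41 and -0.28. Treated PXR-KO animals 1 and 2 lay within the vehicle range and the other 3 below it. The change of -0.26 ± 0.11 did not pass the test (adjusted p = 0.200), nor did the difference of the 2 responses, WT minus PXR-KO (-0.37, 95% interval -0.64 to -0.10, adjusted p = 0.0745). That difference passed with array weights (-0.41, adjusted p = 0.0339), with 1 probe set a gene tested (adjusted p = 0.0450), without WT CMP013 animal 5 (-0.42, adjusted p = 0.0452) and without PXR-KO CMP013 animal 3 (-0.42, adjusted p = 0.0416).

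Stab1, the sister receptor that takes up acetylated lipoproteins and matrix fragments, changed less. WT vehicle animals stood at 0.12, -0.13, -0.07, 0.09 and -0.03 and WT CMP013 animals at -0.46, -0.36, -0.32, -0.32 and -0.34. The groups did not overlap, and Stab1 fell by 21.9% (log2 change -0.36 ± 0.08, adjusted p = 0.0161). The 5 treated PXR-KO animals, at -0.27, -0.28, -0.15, -0.27 and -0.14, also lay below their vehicle animals (-0.08 to 0.15). Their change of -0.23 ± 0.08 did not pass (adjusted p = 0.149), and the interval of the difference between the genotypes ran from -0.34 to 0.08 (adjusted p = 0.457).

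Clec4g, a C-type lectin of sinusoidal endothelium, fell in WT mice at its quieter probe set, and its responses there differed between genotypes. At 1427428_at the WT vehicle animals stood at -0.04, 0.17, -0.03, -0.04 and -0.08 and the WT CMP013 animals at -0.61, -0.69, -0.68, -0.62 and -0.48. The groups were far apart, with a log2 change of -0.61 ± 0.08 (1.53-fold lower, adjusted p = 0.00116). In PXR-KO mice the vehicle animals stood at 0.03, -0.13, -0.01, 0.10 and -0.01 and the treated animals at 0.08, -0.07, 0.10, -0.17 and -0.16. The groups overlapped, with treated animals 4 and 5 just below the lowest vehicle animal. The PXR-KO change was -0.04 with a 95% interval of -0.24 to 0.16 (adjusted p = 0.847), and the responses differed by -0.57 ± 0.11 (adjusted p = 0.00233). The other Clec4g probe set, 1431575_at, spread widely among vehicle animals (-0.66 to 0.52 in WT mice) and among WT CMP013 animals (-1.62 to 0.40), and it passed no test (WT change -0.22 ± 0.39, adjusted p = 0.775). With the probe sets of a gene averaged, the Clec4g fall in WT mice was -0.42 and its difference between genotypes -0.42, and neither passed (adjusted p = 0.184 and 0.275).

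Oit3, a secreted protein with zona pellucida and growth factor-like domains made by sinusoidal endothelium, was lower in every treated animal of both genotypes. WT CMP013 animals stood at -0.58, -0.73, -0.62, -0.47 and -0.64 against -0.14, 0.13, 0.15, -0.04 and -0.10 in WT vehicle animals. PXR-KO CMP013 animals stood at -0.71, -0.41, -0.19, -0.64 and -0.18 against -0.03, 0.04, 0.02, -0.01 and -0.01 in PXR-KO vehicle animals. Neither genotype showed overlap, and the treated PXR-KO animals were more spread than their controls. The WT change was -0.61 ± 0.09 (1.52-fold lower, adjusted p = 0.00221), and the change without PXR was -0.43 ± 0.12 (1.35-fold lower, adjusted p = 0.0787). The interval of their difference ran from -0.48 to 0.13 (adjusted p = 0.485). With all 4 groups in one fit, which shares the spread between genotypes, the PXR-KO change passed (adjusted p = 0.0150).

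Fcgr2b, the inhibitory Fc receptor that takes up small immune complexes in these cells, was measured by 5 probe sets, and 4 of them fell in WT mice. The largest fall was at 1455332_x_at, where WT vehicle animals stood at 0.16, -0.09, 0.03, -0.02 and 0.19 and WT CMP013 animals at -0.75, -0.63, -0.68, -0.96 and -0.60. That is a change of -0.78 ± 0.10 (1.72-fold lower, adjusted p = 0.000846), with no overlap. Of the others, 1435476_a_at changed by -0.68 ± 0.16 (adjusted p = 0.0203), 1435477_s_at by -0.44 ± 0.09 (adjusted p = 0.0115) and 1451941_a_at by -0.30 ± 0.07 (adjusted p = 0.0196). Of these calls 2 were lost at the edge of the threshold with 1 animal left out: 1435476_a_at did not pass without WT vehicle animal 1 (-0.62, adjusted p = 0.0518), nor 1451941_a_at without WT vehicle animal 4 (-0.28, adjusted p = 0.0501). The fifth probe set, 1447622_at, ranged from -1.22 to 1.51 among WT vehicle animals and passed no test on all animals.

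None of the Fcgr2b probe sets passed in PXR-KO mice, where the changes lay between -0.19 and 0.60. The responses of the 2 genotypes differed at 1455332_x_at (-0.61 ± 0.13, adjusted p = 0.00589) and at 1435477_s_at (-0.48 ± 0.11, adjusted p = 0.0102). At 1451941_a_at, the probe set taken for the gene, the difference was -0.11 with an interval of -0.35 to 0.12 (adjusted p = 0.570). At 1435476_a_at it was -0.56, close in size to those that passed, with an interval of -1.14 to 0.01 (adjusted p = 0.211). The suffixes _s_ and _x_ mark probe sets that can bind more than 1 transcript, and Fcgr2b resembles Fcgr3 closely in its extracellular part. Both probe sets that differed between genotypes carry such a suffix, and 1435476_a_at and 1451941_a_at do not.

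Lyve1, a hyaluronan receptor related to CD44, rose in PXR-KO mice. At 1453128_at the PXR-KO vehicle animals stood at 0.13, -0.32, -0.12, 0.00 and 0.28 and the PXR-KO CMP013 animals at 0.77, 1.19, 1.04, 1.27 and 1.30. At 1429379_at the PXR-KO vehicle animals stood at -0.01, -0.91, -0.16, -0.20 and 0.35 and the PXR-KO CMP013 animals at 0.82, 1.10, 0.85, 1.12 and 0.98. All 5 treated animals lay above all vehicle animals at both probe sets. Lyve1 rose 2.17-fold (log2 change 1.12 ± 0.14, adjusted p = 0.00482) and 2.23-fold (1.16 ± 0.20, adjusted p = 0.0153), and with all animals in the fit it was the only marker of the 10 to rise in either genotype. The call held with each of the 10 animals left out in turn (adjusted p up to 0.0170 and 0.0484), and both probe sets were called without the 4 vehicle animals. With trend and robust variances in limma neither passed (adjusted p = 0.0536 and 0.0572), and after quantile normalization 1429379_at did not (adjusted p = 0.0639). That variance setting called 0 of all 45037 probe sets in PXR-KO mice, where 8806 had an unadjusted p under 0.05. The smallest adjusted p among them was 0.0536.

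In WT mice Lyve1 did not rise. WT CMP013 animals stood at -0.29, -0.05, -0.28, -0.13 and -0.50 at 1453128_at, within or just below the vehicle animals at 0.35, 0.00, -0.26, -0.15 and -0.44. The WT changes were -0.15 ± 0.15 (adjusted p = 0.593) and, at 1429379_at, -0.42 ± 0.16 (adjusted p = 0.126). The responses differed by -1.27 ± 0.21 at 1453128_at (adjusted p = 0.000687) and by -1.58 ± 0.27 at 1429379_at (adjusted p = 0.000806), the largest differences among the 17 probe sets. Both passed under every alternative run, left-out animals included.

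Of the growth factor receptors, Kdr, the main VEGF receptor of endothelium, was lower in both genotypes. WT vehicle animals stood at 0.13, -0.04, 0.02, 0.10 and -0.21 and WT CMP013 animals at -0.62, -0.55, -0.49, -0.48 and -0.27. PXR-KO vehicle animals stood at -0.14, 0.21, 0.02, 0.06 and -0.07 and PXR-KO CMP013 animals at -0.45, -0.44, -0.29, -0.52 and -0.26. No treated animal reached the vehicle range in either genotype. Kdr fell by 28.4% in WT mice (-0.48 ± 0.10, adjusted p = 0.0105) and it fell by 24.7% in PXR-KO mice (-0.41 ± 0.10, adjusted p = 0.0469). The PXR-KO call is at the edge of the threshold: it was lost whichever of the 10 animals was left out, with adjusted p from 0.0525 to 0.121 and changes from -0.45 to -0.36. The difference of the 2 responses was -0.07 with an interval of -0.34 to 0.20 (adjusted p = 0.781).

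Tek, the angiopoietin receptor Tie2, stood at -0.21, -0.39, -0.35, -0.36 and -0.34 in WT CMP013 animals, all below the WT vehicle animals at 0.15, 0.03, 0.01, -0.09 and -0.12. The fall of -0.33 ± 0.08 passed (adjusted p = 0.0267), but not without WT vehicle animal 1, 2 or 3 or WT CMP013 animal 2, 3 or 4 (adjusted p from 0.0533 to 0.0664, changes from -0.32 to -0.29). In PXR-KO mice Tek changed by -0.18 ± 0.09 (adjusted p = 0.305), with treated animals at -0.32 to -0.04 and vehicle animals at -0.14 to 0.09. The groups overlapped there, and the difference of the responses did not pass (adjusted p = 0.453).

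The junction proteins did not pass where each genotype was fitted on its own, nor in the difference. Pecam1, the adhesion molecule CD31, varied from -0.48 to 0.38 among WT vehicle animals and from -0.45 to 0.29 among PXR-KO vehicle animals, and its changes were -0.12 ± 0.18 in WT mice (adjusted p = 0.731) and -0.02 ± 0.19 without PXR (adjusted p = 0.966). Its intervals, -0.53 to 0.29 and -0.44 to 0.40, are wide enough to hold a change of the size seen for Stab1. Cdh5, the cadherin of endothelial junctions, changed by -0.09 ± 0.10 in WT mice and by -0.38 ± 0.11 in PXR-KO mice at 1433956_at (adjusted p = 0.630 and 0.0929). PXR-KO CMP013 animals stood at -0.38, -0.36, -0.56, -0.40 and -0.09 there, 4 of them below the lowest vehicle animal at -0.13, and with all 4 groups in one fit this change passed (adjusted p = 0.0302). At 1422047_at Cdh5 changed by 0.20 ± 0.18 and 0.05 ± 0.14 (adjusted p = 0.547 and 0.869).

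**Figure D2:**
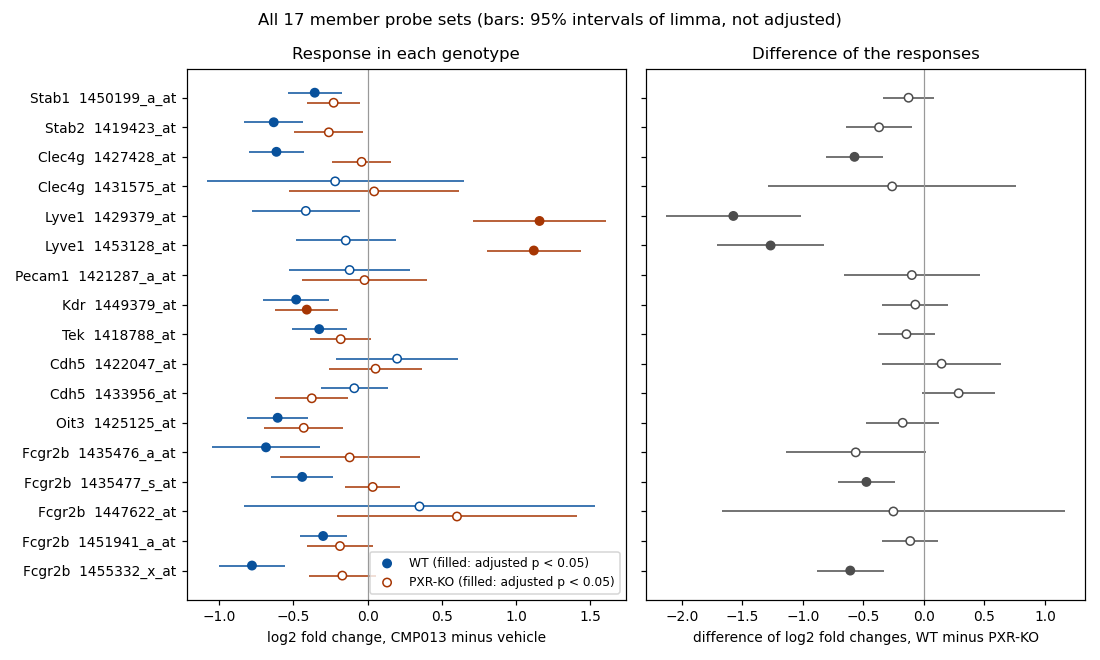
Log2 fold change of CMP013 against vehicle in WT and PXR-KO mice (left) and the WT minus PXR-KO difference (right) for all 17 marker probe sets. Points are estimates, bars 95% intervals from limma, filled points passed an adjusted p of 0.05; 10 WT points are filled, all below 0, and in PXR-KO mice both Lyve1 points near 1.1 and Kdr are filled.

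Taken over the 17 probe sets, PXR-KO mice showed 3 calls: Lyve1 at both probe sets higher and Kdr lower. Of all probe sets 3.65% changed, 2.12% rose and 1.54% fell in that genotype. Groups did not overlap at 5 marker probe sets, 2 of Lyve1 above and those of Stab1, Kdr and Oit3 below, where 4.07% of all probe sets lay above and 3.50% below without overlap. The median change was -0.12 over the marker probe sets and 0.01 over all. Without the 4 vehicle animals the 2 Lyve1 probe sets were called and Kdr was not (-0.33, adjusted p = 0.180). Over all 45037 probe sets 363 were then called, against 1645 with all animals.

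The responses differed between genotypes at 5 of the 17 probe sets, all lower in WT mice, where 11.0% of all probe sets differed, 5.49% with the WT response lower and 5.47% with it higher. They belong to Clec4g, Lyve1 and Fcgr2b. After quantile normalization those of Lyve1 were left, while without the 4 vehicle animals 5 were called. Over all 45037 probe sets 1231 differed after quantile normalization and 2544 without the 4 vehicle animals, against 4936 in the main fit. For Stab1, Kdr, Tek and Oit3, which fell in WT mice, a difference between genotypes was not shown, and for Stab2 it passed only in the alternatives named above.

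The wider endothelial lists were measured by 1 probe set a gene, where 7.98% of 18193 genes fell and 9.72% rose in WT mice, and 2.14% fell and 2.50% rose in PXR-KO mice. Of 28 pan-endothelial genes measured, 8 fell and 0 rose in WT mice (median -0.16, all genes -0.001), and 0 passed limma in PXR-KO mice (4 had an unadjusted p under 0.05; median -0.03). The largest WT falls were in Nrp1, a VEGF co-receptor (-0.998 ± 0.18, adjusted p = 0.00556), Ptprb, the phosphatase that restrains Tek (-0.85 ± 0.11, adjusted p = 0.000816), and S1pr1, a sphingosine 1-phosphate receptor (-0.78 ± 0.21, adjusted p = 0.0332). Esam, a junction adhesion molecule, fell by 0.55 ± 0.10 (adjusted p = 0.00566) and Robo4, a receptor that steadies endothelial barriers, by 0.49 ± 0.09 (adjusted p = 0.00549). Eng, Arhgap29 and Adgrf5 also fell (-0.36, -0.54 and -0.42). The responses differed for Esam, Ptprb, Robo4 and Adgrf5, each lower in WT mice, where 6.22% of all genes were lower and 7.39% higher by that test. Without the 4 vehicle animals 5 genes fell in WT mice and 2 differed between genotypes (Ptprb and Adgrf5). After quantile normalization 2 fell (Ptprb and Nrp1) and 0 differed by limma (5 had an unadjusted p under 0.05).

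Of 32 further scavenging, lectin and specialisation genes measured, 11 fell and 0 rose in WT mice, with a median of -0.30. Mrc1, the mannose receptor that clears collagen fragments, changed by -0.58 ± 0.08 (adjusted p = 0.00103), Ehd3, an endocytic recycling protein, by -0.85 ± 0.11 (adjusted p = 0.000773), and Fcgrt, the neonatal Fc receptor, by -0.60 ± 0.09 (adjusted p = 0.00194). Dnase1l3, a nuclease made by sinusoidal and myeloid cells, fell in both genotypes (-0.51 ± 0.15 in WT, -1.05 ± 0.22 in PXR-KO, adjusted p = 0.0482 and 0.0308). In PXR-KO mice 3 genes of this list rose and 1 fell, with a median of 0.03. The risers were Clec1b, the podoplanin receptor (0.60 ± 0.11, adjusted p = 0.0200), Id1, a target of bone morphogenetic protein signalling (1.97 ± 0.35, adjusted p = 0.0171), and Acvrl1, a receptor of that pathway (0.51 ± 0.12, adjusted p = 0.0472). Clec1b and Id1 both fell in WT mice (-0.44 and -0.54), and their responses differed by -1.04 ± 0.14 and -2.51 ± 0.39 (adjusted p = 0.000126 and 0.000433). Bulk liver does not show in which cells the genes of this list moved, and Id1 is also expressed by hepatocytes. In WT mice 8 genes fell without the 4 vehicle animals, Clec1b, Id1 and Dnase1l3 not among them, and after quantile normalization 7 fell, again without these 3. In PXR-KO mice 0 passed limma under either (8 had an unadjusted p under 0.05 in each), and the difference count of 8 became 6 and 3, Clec1b and Id1 included.

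Ligands that endothelial cells make for hepatocytes and stellate cells were followed too. Of 20 measured, 1 rose and 1 fell in WT mice (median -0.18), and 3 rose and 1 fell in PXR-KO mice (median 0.23). Bmp2, which with Bmp6 tells hepatocytes to make hepcidin, changed by -0.79 ± 0.15 in WT mice and by 0.53 ± 0.11 in PXR-KO mice (adjusted p = 0.00752 and 0.0294), and the responses differed by -1.31 ± 0.18 (adjusted p = 0.000156). The WT riser was Dkk3, a secreted glycoprotein of the Dickkopf family (0.65 ± 0.14, adjusted p = 0.0108). In PXR-KO mice Thbd, the thrombin receptor thrombomodulin, and Kit, the receptor of stem cell factor, neither of them a ligand, also rose (1.14 ± 0.26 and 0.70 ± 0.13), and Edn1, the vasoconstrictor endothelin, fell (-0.57 ± 0.13). Hgf, Bmp6 and Cxcl12 passed only in the difference, each lower in WT mice (-0.87, -1.08 and -0.52). Without the 4 vehicle animals and after quantile normalization 0 genes of this list passed limma in PXR-KO mice (4 and 5 had an unadjusted p under 0.05), and Dkk3 was not called in WT mice. The difference was left for Bmp2 and Bmp6 in the first and for Bmp2 in the second.

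Growth factors that act on the endothelial receptors were measured for 14 genes. Vegfa, the ligand of Kdr, fell in WT mice (-0.50 ± 0.13, adjusted p = 0.0317), where it was the 1 gene of the list to pass, and stood at 0.38 ± 0.11 in PXR-KO mice (adjusted p = 0.0890). Its responses differed by -0.88 ± 0.17 (adjusted p = 0.00229), as did those of Gdf2, a bone morphogenetic protein made in stellate cells (-0.77 ± 0.16, adjusted p = 0.00356). The list medians were 0.04 in both genotypes. Without the 4 vehicle animals, and after quantile normalization, 0 genes of the list passed limma in WT mice, Vegfa included, and 2 had an unadjusted p under 0.05. The 2 differences passed in the first and 0 in the second (4 at an unadjusted p under 0.05).

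Genes known to rise as sinusoids turn into continuous capillaries showed no common direction. Of 17 measured, 2 rose and 1 fell in WT mice (median -0.05) and 2 rose and 1 fell in PXR-KO mice (median 0.16). Cav1, the coat protein of caveolae, which hepatocytes also express, rose 3.80-fold in WT mice (1.92 ± 0.22, adjusted p = 0.000473) and stood at -0.83 ± 0.23 in PXR-KO mice (adjusted p = 0.0729). Icam1, an adhesion molecule for leukocytes, rose in both genotypes (1.12 ± 0.18 and 1.52 ± 0.26, adjusted p = 0.00311 and 0.0152). Vcam1, another such molecule, rose in PXR-KO mice (1.26 ± 0.14) and stood at 0.05 ± 0.12 in WT mice, and the responses differed (adjusted p = 0.000323). Sparcl1, a matrix protein, fell in WT mice (-1.33 ± 0.31, adjusted p = 0.0180) and Ackr1, a chemokine receptor of venules, in PXR-KO mice (-0.59 ± 0.12, adjusted p = 0.0319). After quantile normalization the calls were Cav1 in WT mice and Vcam1 and Icam1 in PXR-KO mice. Leaving out the 4 vehicle animals, the WT calls were Cav1, Icam1 and Sparcl1 and the PXR-KO call was Vcam1.

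**Figure D3:**
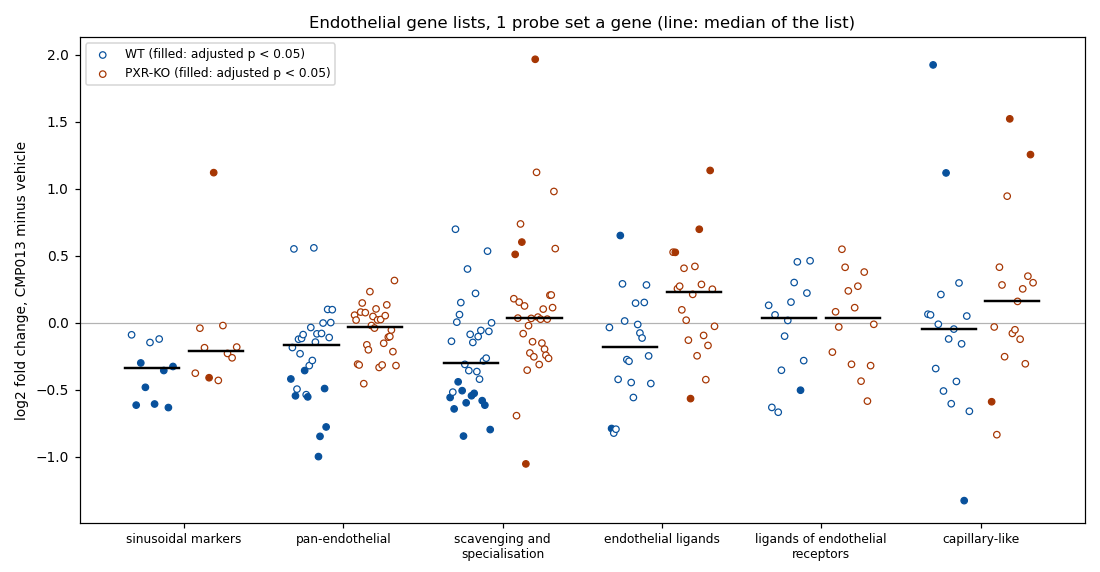
Log2 fold change of CMP013 against vehicle (y axis) for each measured gene of the marker list and of 5 wider endothelial lists (x axis), WT and PXR-KO side by side. Points are genes, filled where adjusted p was under 0.05, and black lines are list medians; the WT medians of the scavenging list and the markers lie at -0.30 and -0.34.

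Some markers of stellate and Kupffer cells also fell in WT mice. Of 10 hepatic stellate cell markers, 7 fell in WT mice and 0 rose (median -0.75), with animal means from -0.11 to 0.16 in WT vehicle and from -0.74 to -0.47 in WT CMP013 mice. Of 10 Kupffer cell markers, 5 fell and 0 rose (median -0.42; Clec4f, Vsig4, Csf1r, Cd163 and Folr2), with animal means from -0.42 to 0.16 and from -0.61 to -0.21. Animal means of the 10 endothelial markers ran from -0.12 to 0.09 in WT vehicle and from -0.41 to -0.33 in WT CMP013 mice. Of 8 hepatocyte markers, 1 fell in WT mice (Hnf4a, -0.45; list median -0.12), and cell division genes rose, 5 of 7 (median 1.67). Leaving out the 4 vehicle animals, 6 stellate, 3 Kupffer and 3 cell division genes were called, and after quantile normalization 5, 0 and 3 by limma, with 5 Kupffer genes at an unadjusted p under 0.05; Hnf4a was called in the first but not in the second. The part of these cells in the endothelial result was not tested.

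In PXR-KO mice the stellate list gave 1 call (Lum, lower) and the Kupffer list 2, Marco 4.22 log2 units higher and Folr2 lower. Marco was the 1 of these 3 called after quantile normalization, and none was called by limma without the 4 vehicle animals (2 stellate and 2 Kupffer genes had an unadjusted p under 0.05). Animal means of the endothelial markers, Lyve1 included, ran from -0.04 to 0.03 in PXR-KO vehicle and from -0.19 to 0.03 in PXR-KO CMP013 mice. The groups overlapped through treated animal 5 (0.03), and the other treated animals lay below all vehicle animals. The median change of the 10 genes was -0.21, and 6 of them, Lyve1 among these, had an unadjusted p under 0.05 by limma. Of 4 lymphatic endothelial markers, read beside Lyve1, 0 passed limma in PXR-KO mice (1 had an unadjusted p under 0.05), with animal means from -0.17 to 0.13 in vehicle and from 0.00 to 0.33 in treated mice. The lymphatic list shares Reln with the stellate list. Prox1, also on the lymphatic list, stood at 0.58 ± 0.17 (adjusted p = 0.0891), and bulk liver does not show in which cells it moved. In WT mice 1 gene of this list rose (Pdpn, 0.56, adjusted p = 0.0166). There 0 passed limma without the 4 vehicle animals or after quantile normalization (1 had an unadjusted p under 0.05 in each). The part of lymphatic vessels or macrophages in the Lyve1 rise was not tested. Of 9 lymphocyte and neutrophil markers, S100a8 rose in both genotypes and S100a9 in WT mice, but limma called 0 of the 9 in either genotype after quantile normalization (2 in WT and 3 in PXR-KO mice had an unadjusted p under 0.05) or without the 4 vehicle animals (3 and 2). Of bile duct markers, 0 of 5 passed limma in either genotype, nor at an unadjusted p under 0.05. Ratios do not show which of these markers were near background.

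**Figure D4:**
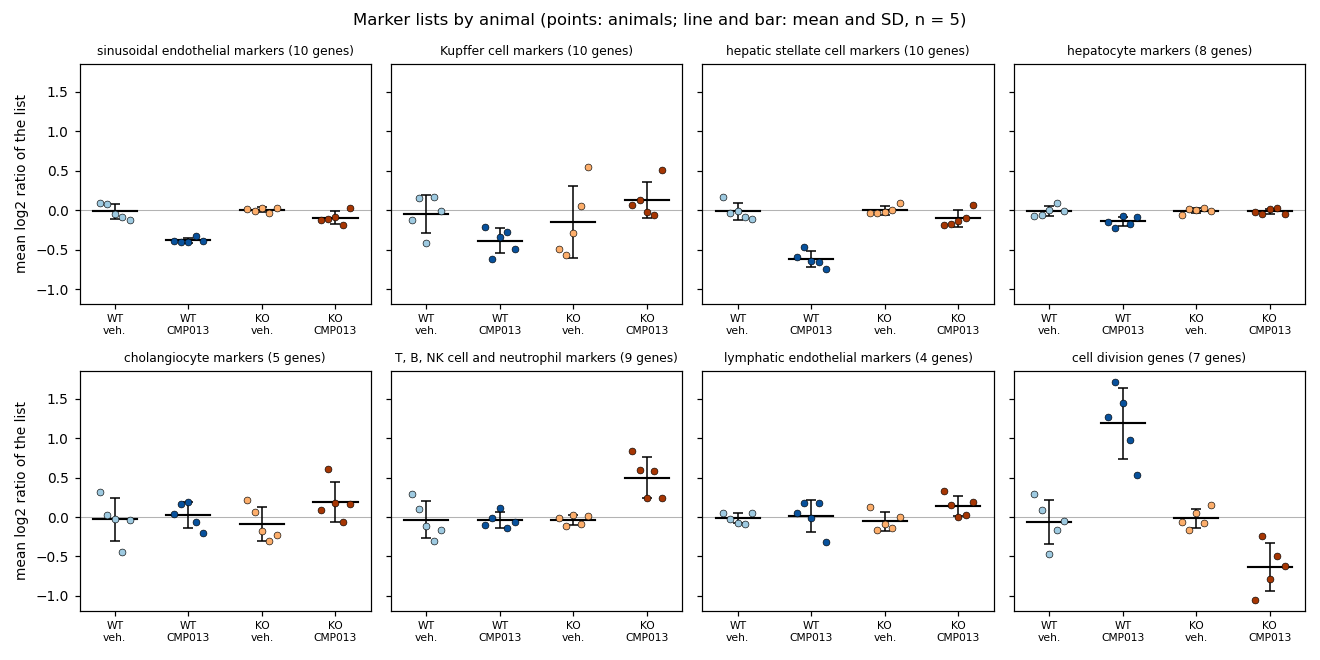
Mean log2 ratio over the genes of each marker list (y axis) in each animal of the 4 groups (x axis; KO stands for PXR-KO). Points are animals, lines and bars the mean and SD (n = 5); in WT mice the stellate and sinusoidal lists of treated animals lie below all vehicle animals, and the Kupffer list overlaps.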

How the data were processed

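Liver RNA of 20 mice was hybridized to 20 Affymetrix Mouse430_2 arrays. The authors deposited log10 ratios made in Rosetta Resolver, each animal divided by the mean of the 5 vehicle animals of its genotype, limited to 2 in size; 7 values stood at that limit. Intensities and detection calls were not used here, so dim probe sets were kept, the number of arrays limits the precision, and the level of the deleted gene was not analysed here. The deposited log10 values were multiplied by the log2 of 10 and compared in R 4.3.3 by limma 3.58.1 (lmFit, eBayes, two-sided, Benjamini-Hochberg over 45037 probe sets): each genotype on its 10 arrays, the difference on all 20. No scan or processing batch is given in the sources used here.

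Named genes are all member probe sets, up to 4 genes of each list with the smallest adjusted p in a comparison, every list gene whose responses differed, and the 8 genes most correlated with the markers. Marker genes of other cells that passed are named only in part. Eng, Arhgap29 and Adgrf5 complete a count, and S1pr1 and Prox1 were chosen after their values were seen. For each list gene 1 probe set naming no other gene was used, first one without _s_ or _x_, then that with the smallest vehicle SD. Members and lists were chosen with earlier results of these data known. Alternatives were median-shifted arrays, quantile normalization, the replicate number as a block, all 4 groups in one fit, array weights, variances with trend and robust, a minimum fold change, 1 probe set or the mean of probe sets a gene, and animals left out. The fits were tested on simulated data. Tables and figures used Python 3.11.15 (pandas 2.3.3, numpy 2.4.6, matplotlib 3.10.9).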

Additional observations from a re-analysis of the deposited data

Results flagged for a closer look

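Of 68 groups of 5 values checked, 3 held 1 animal far from the other 4, where chance gives about 1 group in 20 (gap over range, critical value 0.71). They were WT vehicle animal 2 at Clec4g 1427428_at (log2 ratio 0.17, gap share 0.806), WT CMP013 animal 1 at Tek (-0.21, 0.732) and WT CMP013 animal 2 at Cdh5 1433956_at (-0.33, 0.727). Clec4g passed in WT mice without its far animal, as without every other single animal.

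The WT response lay below the PXR-KO response, by a test of the difference, for Clec4g 1427428_at (-0.57), Lyve1 1429379_at (-1.58) and 1453128_at (-1.27), and Fcgr2b 1435477_s_at (-0.48) and 1455332_x_at (-0.61). The same held for 20 of 22 genes of the wider lists: among pan-endothelial genes Esam (-0.53), Ptprb (-0.69), Robo4 (-0.38) and Adgrf5 (-0.48), and among scavenging and specialisation genes Clec1b (-1.04), Fcgrt (-0.37), Il6st (-0.57), Aass (-0.74), Bmpr2 (-0.68), Smad7 (-1.78), Id1 (-2.51) and Id3 (-1.27). Among ligands they were Hgf (-0.87), Bmp2 (-1.31), Bmp6 (-1.08), Cxcl12 (-0.52), Vegfa (-0.88) and Gdf2 (-0.77), and among capillary-like genes Sparcl1 (-1.68) and Vcam1 (-1.20). The WT response lay above the PXR-KO response for Cav1 (2.76) and Ackr1 (0.65). After quantile normalization 6 of the 22 were called (Clec1b, Aass, Id1, Bmp2, Vcam1 and Cav1), and without the 4 vehicle animals 15.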

How the results depend on the processing

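Of 1080 marker values under the alternatives, 1020 stayed on the same side of the threshold, 52 no longer passed and 8 newly passed. Of the values that passed in either fit, 0 reversed. Some that passed in neither changed sign, such as Clec4g 1431575_at in WT mice (-0.22 on all animals, up to 0.12 with 1 left out). The 10 WT probe sets became 3 after quantile normalization of the log ratios, 4 with the replicate block and 6 without the 4 vehicle animals. The 3 PXR-KO probe sets became 1 after quantile normalization, 5 with all 4 groups in one fit, and 0 both with the replicate block and with trend and robust variances in limma, where 5 and 7 of the 17 had an unadjusted p under 0.05. The 5 probe sets that differed between genotypes became 2 after quantile normalization, and the 3 genes that differed became 1 with the mean over probe sets. With 1 animal left out the counts were 8 to 10 in WT mice, 2 in every case in PXR-KO mice and 5 to 6 for the difference. The cause of these shifts was not tested. The Stab2 and Fcgr2b 1455332_x_at falls in WT mice and the Lyve1 difference passed under every alternative run. Lyve1 in PXR-KO mice lost its call at both probe sets under the replicate block and trend and robust variances (adjusted p 0.0536 to 0.103), and 1429379_at also under quantile normalization (0.0639). Quantile normalization moved the calls over all probe sets from 6480 to 1773 in WT mice, from 1645 to 495 in PXR-KO mice and from 4936 to 1231 for the difference, and the replicate block to 3026, 119 and 2497. Trend and robust variances gave 5997, 0 and 4809, where 8806 had an unadjusted p under 0.05 in PXR-KO mice. Without the 4 vehicle animals the calls were 3308, 363 and 2544. All 4 groups in one fit gave 7923 in WT and 3049 in PXR-KO mice. Same-numbered animals correlated between -0.242 and 0.0651, and none correlated best with its own number, so the numbers were not taken as pairs. A minimum fold change left 9 WT probe sets called. Counting animals past a fixed fold was not run as a test.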

Other observations

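After the 4 group means were taken out, the genes outside the markers whose log2 ratios followed the mean of the 10 markers most closely over the 20 animals were Fbln5 (Pearson r 0.833), Pias3 (0.808), Igfbp7 (0.791), Plvap (0.755), Opa1 (0.750), Igfbp3 (0.749), Bgn (0.747) and Anpep (0.746). The markers are themselves part of that mean, and their own r with it ran from 0.048 (Fcgr2b) to 0.668 (Cdh5). Clec4g stood at 0.162, Stab1 at 0.167 and Stab2 at 0.234, against 0.556 for Tek and 0.649 for Pecam1. The points share arrays and vehicle means, and the values are a description. Among the markers, the closest pair within groups was Stab1 with Kdr (0.692) and the most opposed was Pecam1 with Kdr (-0.407).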
